A study of Mus musculus with 2 samples.

Results

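The 10 genes described here are Rgs1, Rgs2, Rgs10, Rgs13, Gna13, Gnai2, Gnaz, Arhgef1, Gcsam and Rhoa, regulators and carriers of heterotrimeric G protein and RhoA signals that set how germinal center B cells move. They were chosen by symbol from the 30905 genes listed in the count matrices, and all 10 were found and passed the filter on low counts in each comparison. The choice was made with earlier results of these data known. Those had already shown the zone and isotype differences of Gcsam, so the tests of these differences are not independent of the choice. Germinal center B cells had been sorted from spleens of 8-week-old C57BL/6J mice, an inbred strain, that had been immunized with sheep red blood cells. They were profiled by droplet sequencing of transcript 3′ ends in 2 libraries of 1 group, with no treated, mutant or unimmunized group. The labels name no separate animals, so the spread between the libraries may be technical. With the library as a block, p-values measure only how class differences varied between the 2 libraries, with dispersion shared over genes. The comparisons are therefore between cell states inside the libraries, read from transcripts and not from protein or position in tissue: zone gates, cell cycle phases and heavy chain isotypes.

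G protein-coupled receptors for chemokines and lipids steer B cells between the follicle, the germinal center and its zones. Receptors coupled to Gαi, which Gnai2 and Gnaz encode members of, drive migration toward a ligand, and RGS proteins end that signal by speeding GTP hydrolysis on the Gα subunit. Receptors coupled to Gα13, the product of Gna13, act the other way: through the exchange factor encoded by Arhgef1 they load RhoA with GTP, which restrains migration and holds B cells inside the germinal center. Gcsam encodes an adaptor of germinal center B cells that, in human cells, stimulates RhoA and slows movement. Germinal center B cells divide and mutate their antibody genes in the dark zone, and are selected in the light zone by their hold on antigen and on helper T cells.

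The libraries, called 1 and 2 after their titles, held 75121538 and 61874342 UMIs (tags that each mark a single captured RNA molecule) over 8765 and 7868 barcodes, with median mitochondrial shares of 17.8% and 21.0%. A barcode was kept when it had 500 or more genes, 1000 or more UMIs and a mitochondrial share no higher than 20%, which left 5142 and 3526 with median depths of 8183.5 and 8243 UMIs. The libraries shared 22 barcode sequences, 13 of them kept in each. All 8 germinal center B cell markers and all 5 pan-B markers were detected in both libraries, with Bcl6, the repressor that sets the germinal center state, at 109.8 and 99.6 CPM, UMIs scaled to a total of 1000000 over the summed cells. Summed markers of T cells (6 genes) stood at 1.34 and 2.64 CPM, of NK cells (4) at 0.136 and 0.170 and of neutrophils (4) at 0.102 and 0.0970. Erythroid markers (4) summed to 2.09 and 2.45 CPM and macrophage markers (8) to 12.4 and 2.52, and Retnlg, S100a9, Ncr1 and Gzma were at 0 in both libraries. Plasmablast markers (5) summed to 702 and 760 CPM, with Jchain at 604 and 657 and Prdm1 at 1.75 and 1.28. Naive or memory B cell markers (10) summed to 230 and 278 CPM, with Fcmr at 146 and 174.

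Of the RGS genes, 3 are neighbours on chromosome 1 of mm10, all on the minus strand: Rgs2 (ENSMUSG00000026360, chromosome 1, 143999338 to 144004161, minus strand), Rgs13 (ENSMUSG00000051079, chromosome 1, 144138654 to 144177372, minus strand) and Rgs1 (ENSMUSG00000026358, chromosome 1, 144242296 to 144249242, minus strand). Gaps of 134492 and 64923 bases separate them, and the next genes of the family after them, Rgs21 and Rgs18, stood at 0 UMIs and at 200 and 138 UMIs in the 2 libraries. Gcsam (ENSMUSG00000022659, chromosome 16, 45610380 to 45622867, plus strand) lies apart from them. The upstream bases of Rgs2, Rgs13 and Gcsam are shown because, as described below, Gcsam went against Rgs2 between phases and against Rgs13 between zone gates. In the RefSeq promoter table (GRCm38.p6), 7 of the 10 genes matched, with 9 start sites, and Rgs1, Gnai2 and Gnaz did not. The 250 bases before the start site read 5′ to 3′ along the gene as follows, in lower case, with motif matches in capitals.
Rgs2 (chr1:144004150-144004399, minus strand): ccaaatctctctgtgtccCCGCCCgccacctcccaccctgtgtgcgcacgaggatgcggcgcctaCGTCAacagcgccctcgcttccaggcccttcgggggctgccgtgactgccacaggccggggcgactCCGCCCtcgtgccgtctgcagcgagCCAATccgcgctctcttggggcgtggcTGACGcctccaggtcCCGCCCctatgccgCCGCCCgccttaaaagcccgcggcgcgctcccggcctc
Rgs13 (chr1:144177373-144177622, minus strand): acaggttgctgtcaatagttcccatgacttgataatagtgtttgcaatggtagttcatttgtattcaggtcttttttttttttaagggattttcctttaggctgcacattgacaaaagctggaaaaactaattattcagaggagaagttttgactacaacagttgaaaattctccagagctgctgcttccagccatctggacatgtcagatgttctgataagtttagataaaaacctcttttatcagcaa
Gcsam (chr16:45610190-45610439, plus strand): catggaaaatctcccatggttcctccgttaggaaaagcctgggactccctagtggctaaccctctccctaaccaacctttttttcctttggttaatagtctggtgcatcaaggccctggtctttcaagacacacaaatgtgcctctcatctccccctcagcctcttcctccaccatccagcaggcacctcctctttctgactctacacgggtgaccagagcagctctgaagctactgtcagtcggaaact

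The Rgs2 sequence is rich in CpG, with 30 CpG dinucleotides, an observed to expected ratio of 0.960 and 72.4% G and C. The Rgs13 sequence held 0 CpG and 36.0% G and C, and the Gcsam sequence held 3 CpG at a ratio of 0.198 with 51.6% G and C. Across all 32851 promoters in the table the median ratio was 0.373, and the 10th and 90th percentiles were 0.0678 and 0.924. The other 6 start sites of matched genes, those of Rgs10, Gna13, Arhgef1 and Rhoa, had ratios of 0.722 to 0.971. On both strands, 8 motifs were searched, which are spelled out below, with positions counted back from the start site. In the Rgs2 sequence the capitals mark CCAAT from −94 to −90, TGACG from −67 to −63 and, on the other strand, from −185 to −181, and 4 GC boxes on the other strand, with no overlap between them. The Rgs13 and Gcsam sequences held none of the 8 in these windows. Across all promoters of the table, the share with the sequence CCAAT on either strand was 33.8%. The GC box, spelled GGGCGG, was found in 32.7%, and TGACG, part of the cyclic AMP response element, in 17.8%. The cell cycle homology region, TTTGAA, was found in 16.0%, and the TATA box, searched as TATAAA, in 12.4%. The E-box, CACGTG, was found in 6.02%, the forkhead motif TGTTTAC in 3.17%, and the octamer, searched as ATTTGCAT, in 1.60%.

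In light zone gate cells Gcsam was lower and Rgs13 higher than in dark zone gate cells. Gna13 was also called lower, and Rhoa and Rgs1 higher, with smaller differences that passed in 12, 11 and 6 of 16 alternative settings. The gates were read after UMIs of each cell had been drawn down at random to 3400. A cell fell in the light zone gate (1671 and 1157 cells) when Cd83 or Cd86 was seen and Cxcr4 was not, and in the dark zone gate (759 and 490 cells) when Cxcr4 alone was seen. In a sum over such cells, more expressing cells and more RNA per cell cannot be told apart. Gcsam stood at 94.0 and 82.0 CPM in light zone gate cells of libraries 1 and 2, against 177 and 166 CPM in dark zone gate cells. Both libraries were lower in the light zone gate, the groups did not overlap, and the test gave −0.97 ± 0.053 on the log2 scale (SE, adjusted p = 6.49e-70 by edgeR), that is a level 0.511 times that of the dark zone gate. Cells with both signals (531 and 349) and with neither (1716 and 1139) lay between, at 132 and 128 and at 149.9 and 142 CPM, so that all 4 classes were apart in the order light, both, neither, dark. Gcsam was past the threshold in all 16 alternative settings with a test, at log2 fold changes from −1.55 to −0.86.

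Rgs13, an RGS protein of germinal center B cells that dampens chemokine receptor signals, had the opposite slope. It stood at 184 and 213 CPM in light zone gate cells, against 138 and 173 CPM in dark zone gate cells, with 0.35 ± 0.049 on the log2 scale (SE, adjusted p = 2.94e-11 by edgeR). Library 2 was above library 1 in both gates. Rgs1, which acts on Gαi and limits B cell migration to chemokines, stood at 75.1 and 70.6 CPM in light zone gate cells, against 63.9 and 66.3 CPM in dark zone gate cells (0.16 ± 0.065 on the log2 scale, edgeR adjusted p = 0.0434). This direction did not hold in every setting: it was −0.31 (adjusted p = 0.0382) with gates of at least 2 UMIs, −0.047 at a mitochondrial limit of 40% and 0.080 without library 1, and 6 of 16 settings passed in the reported direction. Cells with both gate signals had the highest Rgs1 of the 4 classes, at 82.8 and 78.4 CPM, and cells with neither the lowest, at 55.7 and 54.0. Rgs2, an RGS protein that acts mainly on Gαq, followed the same order at its ends, with 235 and 215 CPM in cells with both signals and 146 and 130.0 in cells with neither. Its levels of 188 and 185 CPM in light zone gate cells and 190.4 and 171 CPM in dark zone gate cells overlapped (edgeR adjusted p = 0.695). Rgs10, a small RGS protein of immune cells, also overlapped, at 60.9 and 75.7 against 59.4 and 75.4 CPM (adjusted p = 0.929). At a mitochondrial limit of 10% it was called lower in the light zone gate, at −0.25 (adjusted p = 0.00639). Cells with both signals were shallower than cells with neither, with median depths of 7475 and 7753 against 10320 and 10641 UMIs. G1-like cells, called as described below, made up 151 of 531 and 74 of 349 cells with both signals. Among cells with neither they made up 214 of 1716 and 127 of 1139. The part of depth and phase in the order of Rgs1 and Rgs2 was not tested.

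Of the arm that leads to RhoA, Gna13 stood at 199 and 200.0 CPM in light zone gate cells, against 229 and 225 CPM in dark zone gate cells (−0.20 ± 0.046 on the log2 scale, edgeR adjusted p = 0.000146). The gates were apart, and the class with both signals, at 225 and 230.3 CPM, overlapped with the dark zone gate. Rhoa, the GTPase itself, was the other way round at 375 and 421 against 337 and 379 CPM (log2 fold change 0.14 ± 0.038, edgeR adjusted p = 0.00118). Its groups overlapped between the libraries, although it was higher in the light zone gate within each. The Rhoa call was lost at a mitochondrial limit of 10%, at 0.041 (adjusted p = 0.586), on thinned sums, with DESeq2 and without the block. It was also lost with mitochondrial share as a term, split only at 10%, at 0.10 (adjusted p = 0.247). Arhgef1, the exchange factor between them, had 178 and 162 against 197 and 165 CPM and did not pass (log2 fold change −0.11, adjusted p = 0.0855). Gnai2, the main Gαi of lymphocytes, had 703 and 741 against 719 and 763 CPM and did not pass (adjusted p = 0.256). Gnaz was sparse, with 166 and 134 UMIs against 92 and 59 UMIs, or 8.73 and 9.84 against 10.5 and 9.90 CPM (adjusted p = 0.470). This depended on the setting: Gnaz was called lower in the light zone gate in 4 of 16 settings, at −0.63 (adjusted p = 0.000141) with another thinning seed, −0.58 (adjusted p = 6.82e-05) at a mitochondrial limit of 40%, −0.75 (adjusted p = 0.000245) with unthinned gates and −1.03 (adjusted p = 0.00419) with gates of 2 UMIs.

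In total 5 of the 10 genes were called between the gates, 3 of them higher and 2 lower, beside 29.3% of all 10652 genes tested (15.5% higher and 13.9% lower). Without the library as a block 1 of them was called (Gcsam), and with DESeq2 2 (Gcsam and Rgs13). The block leaves 1 residual degree of freedom, so the test leans on dispersion shared over genes. A cell with no UMI of a gate gene may still express it, so each gate also misses cells of its zone.

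**Figure D1:**
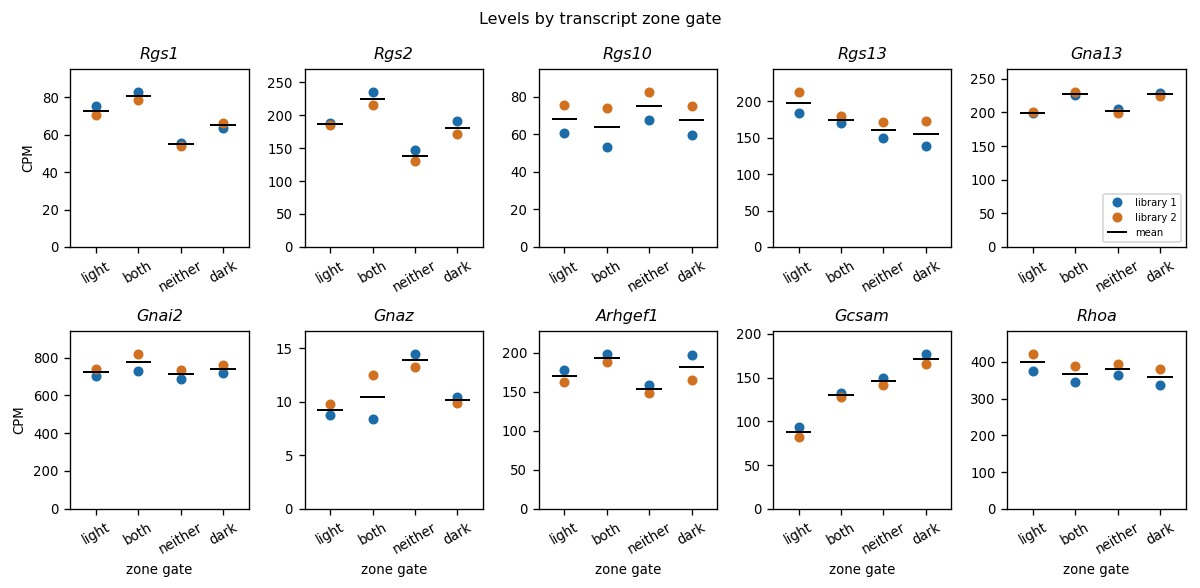
Levels of the 10 genes in CPM (y axes, from 0) in 4 zone gate classes (x axes), with 1 point per library and a bar at their mean. Gcsam climbs from light to dark with no overlap of classes, Rgs13 is highest in the light zone gate, and Rgs1 and Rgs2 are highest in cells with both gate signals and lowest in cells with neither.

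Across cell cycle phases Rgs1, Rgs2 and Arhgef1 were lower, and Gcsam and Gnaz higher, in S-like cells than in G1-like cells. Phases were called from transcript scores of an S list (43 genes) and a G2/M list (53 genes), which were left out of the test, and 603 (12.9%) and 347 (11.1%) cells lay within 0.05 of a boundary. G1-like cells numbered 978 and 579 (median depths 5455.5 and 5713 UMIs), S-like 1575 and 1131 (9669 and 10185) and G2/M-like 2124 and 1425 (10725 and 10451). The S and G2/M comparisons share the G1-like sums, so their values stand side by side without a test between them. S-like against G1-like, 8 of the 10 genes were called (3 higher and 5 lower) beside 60.6% of 10664 genes (30% and 30.6%). G2/M-like against G1-like, 7 were called (3 higher and 4 lower) beside 56.3% of 10826 genes (28.2% and 28.1%). Most genes tested passed in both, so the number called says little about these 10 in particular.

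Rgs2 stood at 286 and 255 CPM in G1-like cells, 143 and 133 in S-like cells and 173 and 166 in G2/M-like cells. The 3 phases did not overlap, with S lowest. The S comparison gave −0.91 ± 0.053 on the log2 scale (SE, adjusted p = 3.25e-49 by edgeR) and the G2/M comparison −0.64 ± 0.050 (adjusted p = 1.23e-35). Its chromosomal neighbour Rgs1 stood at 103 and 91.0 CPM in G1-like, 66.0 and 62.4 in S-like and 57.6 and 59.0 in G2/M-like cells. It fell by 0.54 in S-like and by 0.71 in G2/M-like cells on the log2 scale (edgeR adjusted p = 3.85e-14 and 1.98e-27). Both genes were past the threshold in all 14 alternative settings of both comparisons. Thinned sums, which are among these settings, gave each cell the same 3400 UMIs. None of the settings matched cells on their depth before thinning, which was lower in G1-like cells. Kept barcodes too shallow for a phase call held 166 and 148 CPM of Rgs1, against 67.8 and 65.6 over all kept barcodes. For Rgs2 they held 471 and 382 CPM, against 181 and 167. The part of depth in the phase differences was not tested. Rgs13, which lies between Rgs1 and Rgs2, changed less. It stood at 176 and 231 CPM in G1-like, 161 and 177 in S-like and 157 and 184 in G2/M-like cells. Its phases overlapped between the libraries, and the fold changes of −0.19 ± 0.054 and −0.20 ± 0.052 (edgeR adjusted p = 0.00146 and 0.000308) leaned on library 2. They were −0.058 and −0.10 without library 2, and −0.33 and −0.31 without library 1. Rgs10 was higher in S-like than in G1-like cells by 0.28 ± 0.071 (adjusted p = 0.000278), at 68.0 and 86.0 against 55.3 and 78.4 CPM, and by 0.18 without library 1. With mitochondrial share as a term the Rgs10 value was 0.14 (adjusted p = 0.202). In G2/M-like cells it stood at 61.0 and 72.7 CPM and did not pass (adjusted p = 0.429).

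Gnaz, a Gα of the Gi family, had the largest change of the 10 in size. It stood at 4.26 and 4.36 CPM in G1-like cells (28 and 18 UMIs), 17.7 and 16.0 in S-like cells and 8.71 and 9.64 in G2/M-like cells, with no overlap. The S comparison gave 2.04 ± 0.19 on the log2 scale (SE, adjusted p = 2.81e-23 by edgeR) and the G2/M comparison 1.12 ± 0.21 (adjusted p = 5.95e-07). When the top was set against the bottom tertile of cells by summed UMIs of the lists, these were 1.37 (adjusted p = 1.50e-15) and 0.25 (adjusted p = 0.136), so the G2/M call was lost. Gcsam stood at 82.2 and 65.1 CPM in G1-like, 126 and 112 in S-like and 150.4 and 144 in G2/M-like cells, higher at each stage and with no overlap. Its fold changes were 0.75 ± 0.066 (edgeR adjusted p = 8.72e-25) and 1.03 ± 0.062 (1.12e-58), and all 14 settings of each passed, with 0.23 for S between tertiles as the lowest.

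Arhgef1 stood at 219 and 185 CPM in G1-like, 145 and 136 in S-like and 185 and 171 in G2/M-like cells. S was lowest, and the G1-like and G2/M-like levels all but touched, with −0.47 ± 0.055 in S-like cells (SE; edgeR adjusted p = 1.69e-15) and −0.15 ± 0.052 in G2/M-like cells (adjusted p = 0.00929). The second value was 0.0054 without the 6% of barcodes with most UMIs and 0.065 between tertiles, and −0.10 without library 1, and its call held in 6 of 14 settings. Gnai2 had 762 and 822 CPM in G1-like, 658 and 711 in S-like and 717 and 763 in G2/M-like cells. It was called for S only (−0.15 ± 0.049, adjusted p = 0.00405, against −0.057 and adjusted p = 0.363 for G2/M). The difference between these values was not tested. Gna13 was called in neither, at 218 and 199 CPM in G1-like, 192 and 197 in S-like and 217 and 214 in G2/M-like cells (adjusted p = 0.491 for S and 0.131 for G2/M), although 4 of 14 settings called it higher in G2/M-like cells and 1 called it lower in S-like cells. Rhoa had 355 and 400.4 CPM in G1-like, 342 and 382 in S-like and 378 and 415 in G2/M-like cells. Its fold change was 0.11 ± 0.050 in G2/M-like cells (adjusted p = 0.0416, and 0.072 without library 1). That call held in 6 of 14 alternative settings and not, for example, with mitochondrial share as a term, at 0.011 (adjusted p = 0.887), or with DESeq2. The S comparison did not pass (adjusted p = 0.999).

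Other signals moved with the phases. Summed naive or memory B cell markers (10 genes) stood at 461 and 632 CPM in G1-like, 195 and 229 in S-like and 202 and 239.8 in G2/M-like cells. Macrophage markers summed to 89.5 and 16.5 CPM in G1-like, 1.35 and 0.641 in S-like and 0.528 and 0.389 in G2/M-like cells. Dissociation response genes (12) summed to 1427 and 1523 CPM in G1-like, 849 and 904 in S-like and 893 and 918 in G2/M-like cells, and the part of these 3 lists in the results was not tested. Among barcodes with at least 2 thinned UMIs of the germinal center list and at most 1 of the other lineages, S-like against G1-like values were −0.89 for Rgs2, −0.48 for Rgs1, 0.66 for Gcsam and 1.93 for Gnaz. G2/M-like against G1-like values there were −0.63, −0.68, 0.96 and 1.04 for the same genes. Without the library block 5 genes were called for S and 4 for G2/M, and with DESeq2 5 and 4.

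**Figure D2:**
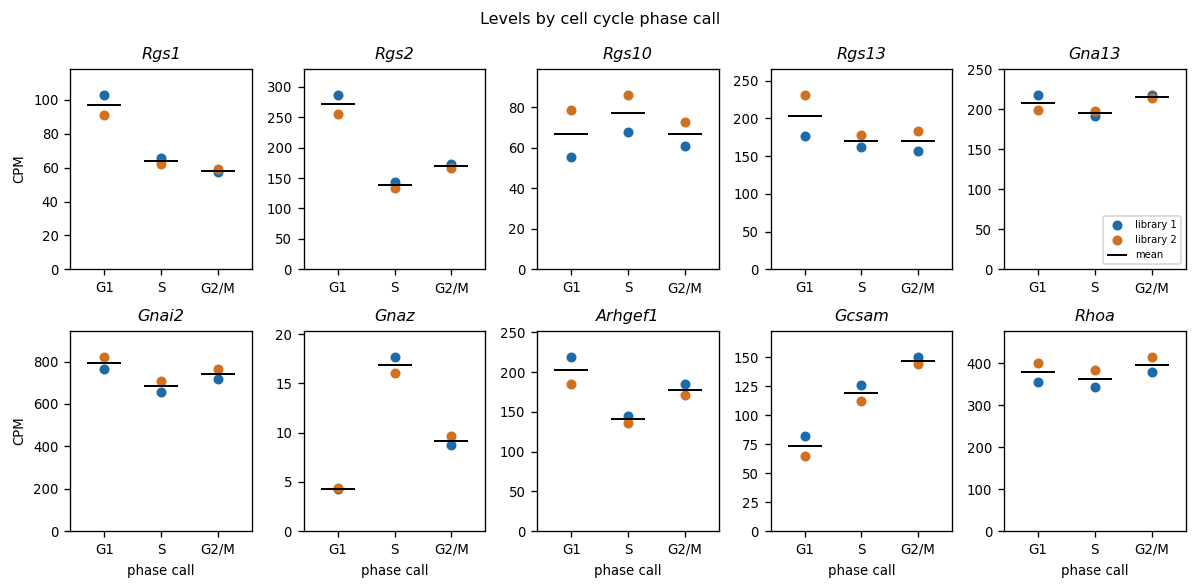
Levels of the 10 genes in CPM (y axes, from 0) in G1-like, S-like and G2/M-like cells (x axes), with 1 point per library and a bar at their mean. Rgs1 and Rgs2 are highest in G1, Gcsam is higher at each stage, and Gnaz peaks in S.

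The zone difference of Gcsam was present within each phase. In G1-like cells Gcsam stood at 58.1 and 43.0 CPM in the light zone gate, against 137 and 141 CPM in the dark zone gate. In S-like cells the levels were 93.0 and 78.1 against 164 and 163 CPM, and in G2/M-like cells 109 and 99.9 against 188 and 171 CPM. The gates were apart in every phase, with a log2 difference of −1.46 ± 0.33 in G1-like, −0.93 ± 0.17 in S-like and −0.77 ± 0.01 in G2/M-like cells (SD, n = 2). With phase as a term in the fit, the zone difference of Gcsam was −0.95 (adjusted p = 8.00e-14) by edgeR. Light zone gate cells in G1 thus held the lowest Gcsam of the 12 classes of gate and phase, in both libraries. Rgs13 was higher in the light zone gate within each phase and library, at 189 and 263 against 139 and 200.1 CPM in G1-like, 182 and 199 against 149 and 177 in S-like and 183 and 206 against 133 and 167 in G2/M-like cells. Rgs1 was lower in the light zone gate in G1-like cells, at 107 and 76.9 against 116 and 121 CPM, and higher in S-like cells, at 73.2 and 75.0 against 57.7 and 59.1 CPM, in both libraries.

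A test of whether the zone difference varied with phase called none of the 10 genes beside 31 of 9742 genes (0.318%). The lowest edgeR adjusted p were 0.228 for Gcsam (unadjusted 0.00304) and 0.357 for Rgs1 (unadjusted 0.00952), the only 2 of the 10 below 0.05 before adjustment, beside 851 genes in all. DESeq2 called none of the 7 members to which it gave an adjusted p. The outcome depended on the random thinning that sets gates and phases. With another seed 258 genes were called, among them Gcsam (adjusted p = 0.00473) and Rgs13 (adjusted p = 0.00735), whereas Rgs1 had 0.809.

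**Figure D3:**
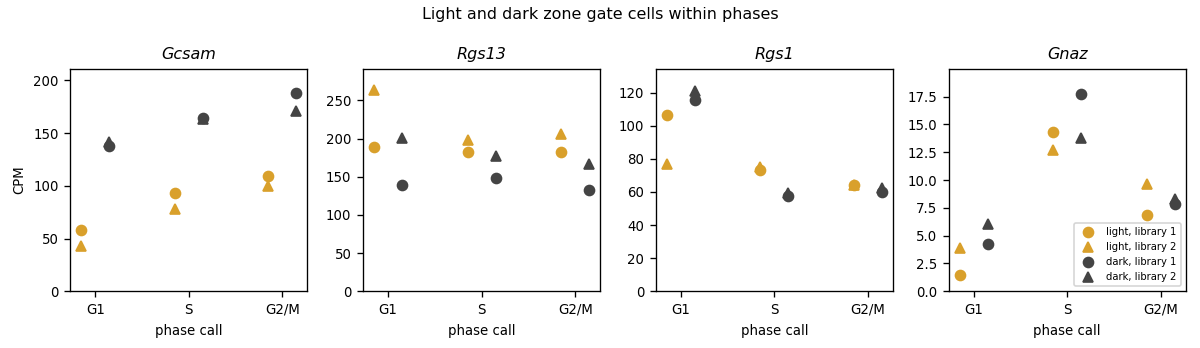
Levels of Gcsam, Rgs13, Rgs1 and Gnaz in CPM (y axes, from 0) in light and dark zone gate cells within G1-like, S-like and G2/M-like cells (x axes), with 1 symbol per library. Gcsam is lower in the light zone gate in every phase and library, Rgs13 is higher there, and Rgs1 lies on different sides in G1 and S.

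In class-switched IgG cells Gcsam was higher and Rgs13 lower than in unswitched IgM cells. Gna13, Gnaz, Rgs1 and Rgs2 were also called higher, in 12, 11, 9 and 9 of 15 alternative settings, and Rhoa lower, in 10. The 15 include another thinning seed, which could not change these values, because isotypes and sums used unthinned counts. Cells with at least 5 heavy chain constant UMIs, at least 80% of them of Ighg genes or of Ighm and Ighd, numbered 2192 and 1437 for IgG and 1775 and 1323 for IgM. Gcsam stood at 149 and 139 CPM in IgG cells, against 115 and 102 CPM in IgM cells. The groups were apart, with 0.39 ± 0.043 on the log2 scale (SE, adjusted p = 4.86e-14 by edgeR), and cells of mixed isotype lay between at 126 and 125 CPM. Rgs13 stood at 154 and 171 CPM in IgG cells, against 181 and 207 CPM in IgM cells, also lower in each library (−0.27 ± 0.040, edgeR adjusted p = 2.34e-08). Gcsam and Rgs13 passed in 14 of 15 alternative settings each, all but the fit without the library block, and were the genes that DESeq2 called. IgG cells of the main subclass, IgG1 (1735 and 1125), had 149.9 and 141 CPM of Gcsam and 148 and 168 CPM of Rgs13. The smaller IgG2b class (193 and 141 cells) had 158 and 146 and 162 and 192 CPM. IgG3 cells (33 and 24) had 275 and 236 CPM of Rgs13 from 121 and 63 UMIs, above IgG1 and IgG2b in each library. The 5 and 4 IgG2c cells had 252 and 462 CPM from 40 and 32 UMIs. Median mitochondrial shares were 14.1% and 14.2% in IgG1 and 13.2% and 11.8% in IgG2b cells. They were lower in IgG3 cells, at 10.7% and 9.68%, and in IgG2c cells, at 5.93% and 6.84%. Rgs13 also differed by that share, as described below, and its part in these subclass levels was not tested.

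Gna13 stood at 221 and 215 CPM in IgG cells, against 193 and 195 CPM in IgM cells (0.15 ± 0.039, edgeR adjusted p = 0.00382), and Rhoa at 352 and 391 against 381 and 414 CPM (−0.12 ± 0.036, adjusted p = 0.0140). The Gna13 groups were apart and the Rhoa groups overlapped. Gnaz had 297 and 243 UMIs in IgG cells, or 11.8 and 13.9 CPM, against 202 and 141 UMIs in IgM cells, or 9.75 and 8.99 CPM (0.41 ± 0.10, adjusted p = 0.00198). Without library 2 the Gnaz value was 0.25. Rgs1 stood at 72.3 and 68.2 against 63.4 and 59.6 CPM (0.17 ± 0.050, adjusted p = 0.00918) and Rgs2 at 188 and 171 against 166 and 159 CPM (0.13 ± 0.040, adjusted p = 0.0203). Both turned round, uncalled, at a mitochondrial limit of 10% (−0.12 and −0.035) and with isotypes called from at least 20 UMIs and 95% (−0.074 and −0.089). Arhgef1, Rgs10 and Gnai2 did not pass (adjusted p = 0.906, 0.743 and 0.299).

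In total 7 of the 10 genes were called, 5 higher and 2 lower in IgG cells, beside 14% of 11223 genes (5.84% higher and 8.14% lower). Without the library block edgeR called none of the 10 and 84 genes in all, with 943 at an unadjusted p below 0.05. Median mitochondrial shares were 13.9% and 14.0% in IgG cells against 12.6% and 12.4% in IgM cells, and naive or memory B cell markers summed to 169.6 and 203 against 299 and 358 CPM. With sums split at a mitochondrial share of 10% and that share as a term, an alternative chosen after seeing the data, 4 of the 10 genes were called beside 11.3% of 10708 genes: Gcsam at 0.42 (adjusted p = 9.45e-08), Rgs13 at −0.19 (adjusted p = 0.00182), Gna13 at 0.14 (adjusted p = 0.0227) and Gnaz at 0.42 (adjusted p = 0.0175). Whether the isotype difference varied between zone gates was tested as an interaction, which called none of the 10 and 2 of 10006 genes (0.02%) by edgeR, and none of the 10 and 1 gene by DESeq2. By edgeR, Gna13 (adjusted p = 0.465, unadjusted 0.00984), Rgs10 (adjusted p = 0.50, unadjusted 0.0164) and Rgs13 (adjusted p = 0.606, unadjusted 0.0375) were the members below 0.05 before adjustment, beside 796 genes in all. The Gna13 value of 0.25 on the log2 scale (IgG against IgM, light less dark zone gate) did not hold in 3 other settings, at 0.0014 with another thinning seed, −0.00010 at a mitochondrial limit of 40% and −0.16 at 10%. Rgs13 was −0.23, and −0.027 with the other seed.

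**Figure D4:**
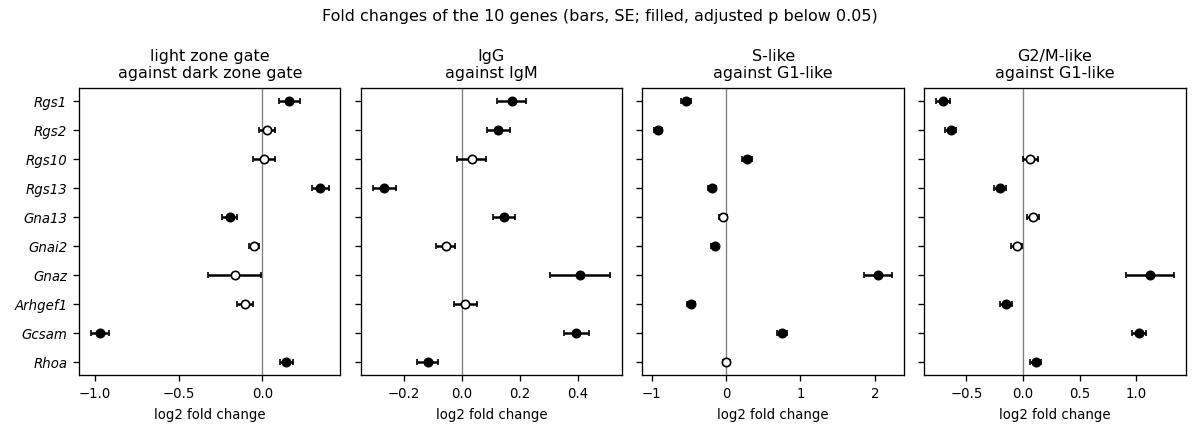
Log2 fold changes (x axes, scaled separately in each panel) of the 10 genes (y axis) in 4 comparisons, with bars for the SE and filled points for an edgeR adjusted p below 0.05. Gcsam is lower in the light zone gate and higher in IgG, S-like and G2/M-like cells, and Rgs13 has the opposite sign in all 4.

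The mitochondrial share of a barcode, a common sign of damaged or stressed cells, moved with several of the genes. Rgs1 had 26.5 and 35.3 CPM up to 5%, 44.5 and 46.6 from 5% to 10%, 93.3 and 90.7 from 10% to 20% and 157 and 139.7 from 20% to 40%, higher at each step in both libraries. Rgs2 climbed likewise, with 79.0 and 67.2 CPM up to 5%, 128 and 128 from 5% to 10%, 240.0 and 228 from 10% to 20% and 318 and 301 from 20% to 40%. Arhgef1 had 95.3 and 88.4 CPM up to 5%, 145 and 140.0 from 5% to 10%, 217 and 200.0 from 10% to 20% and 279.8 and 257 from 20% to 40%. The other direction was seen for Rgs13, with 187 and 206 CPM up to 5%, 222 and 247 from 5% to 10%, 105 and 119 from 10% to 20% and 59.5 and 62.4 from 20% to 40%, and for Rgs10, with 86.9 and 80.8 CPM up to 5%, 85.9 and 99.1 from 5% to 10%, 39.0 and 55.4 from 10% to 20% and 18.9 and 23.0 from 20% to 40%. Rhoa fell to 234 and 236 CPM in the highest class, against 432 and 463 CPM in the lowest, while Gcsam was highest from 5% to 10% (151 and 141 CPM) and stood at 98.5 and 94.0 CPM in the highest class. Gna13 stood at 219.8 and 225 CPM in the highest class, against 132 and 142 CPM in the lowest. Gnai2 stood at 485 and 543 against 527 and 538 CPM, below its middle classes at both ends, and Gnaz at 11.3 and 11.8 against 15.5 and 14.3 CPM. Left in the total, mitochondrial UMIs lower every other gene's CPM. Counted without them, Rgs1 stood at 210.4 and 190.5 CPM in the highest class, against 27.6 and 36.8 in the lowest, and Rgs13 at 79.8 and 85.1 against 195 and 215. The classes also differed in depth, with median UMIs of 4239 and 4413 in the highest and 11646.5 and 9007.5 in the lowest, and in dissociation response genes, at 1499 and 1613 against 609 and 664 CPM. These levels are a description, with no test, and the highest class lies above the limit used elsewhere.

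Median mitochondrial shares were lower in the light zone gate, at 13.3% and 12.9%, than in the dark zone gate, at 13.9% and 14.6%. Between phases they were 13.7% and 13.7% in G1-like, 13.3% and 12.8% in S-like and 13.1% and 13.4% in G2/M-like cells. All of these medians lie above 10%. The share as a term was split only at 10%, so it does not adjust for differences above that. With this term, 4 of the 10 genes were called between the zone gates, beside 20.6% of 10141 genes: Gcsam (−0.98), Rgs13 (0.24), Rgs1 (0.25) and Gna13 (−0.18). For S-like against G1-like cells 7 were called beside 53.4% of 10170 genes, and for G2/M-like cells 5 beside 51.3% of 10438 genes. Rgs2 was −0.82 and −0.62 there, Rgs1 −0.40 and −0.64, Gnaz 2.13 and 1.13, and Gcsam 0.75 and 1.0.

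**Figure D5:**
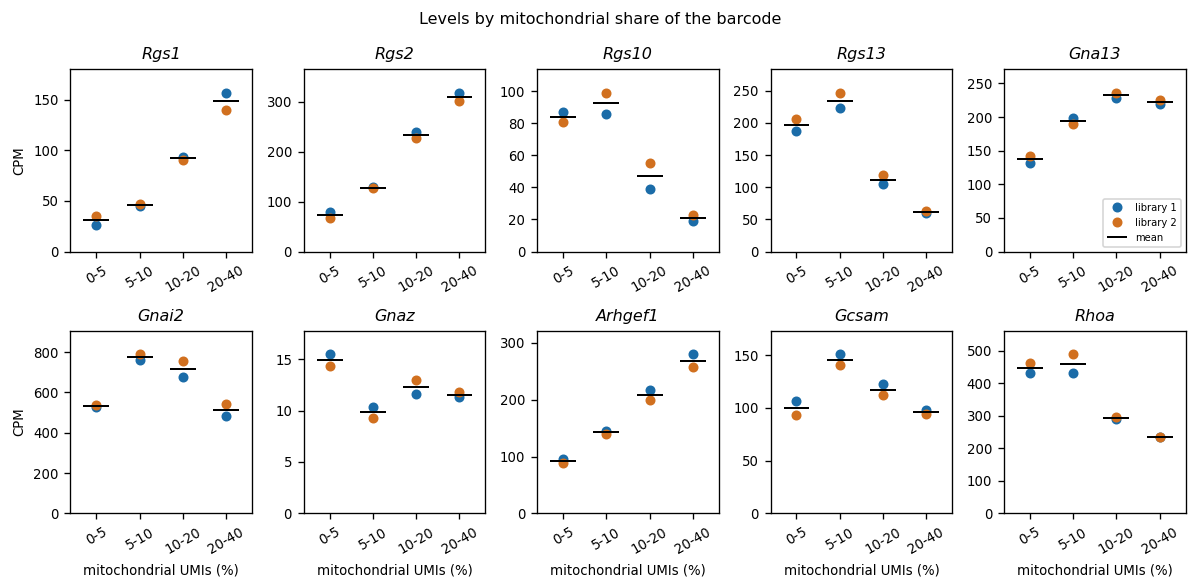
Levels of the 10 genes in CPM (y axes, from 0) by the mitochondrial share of the barcode in percent (x axes), with 1 point per library and a bar at their mean. Rgs1, Rgs2 and Arhgef1 are higher at each step, and Rgs10, Rgs13 and Rhoa are lowest in the highest class.

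Among single cells thinned to 3400 UMIs, the variance over the mean of the UMI counts (1 for pure counting noise) was highest for Rgs1, at 2.04 and 1.95 in the 2 libraries. Rgs2 (1.64 and 1.67) and Rgs13 (1.44 and 1.57) came next, and the rest lay between 1.09 and 1.23. This ratio grows with a gene's level, so it does not rank the genes by how uneven their expression is. Over 24 sums (4 zone classes, 3 phases and 2 libraries, which share libraries and depth), Rgs1 and Rgs2 had a Pearson correlation of log2(CPM + 1) of 0.85, whereas Rgs13 had 0.29 with Rgs1 and 0.29 with Rgs2. Rgs2 and Arhgef1 stood at 0.81, and Rgs13 and Gcsam at −0.630. The lowest values were those of Gnaz with Rgs2 (−0.78), Arhgef1 (−0.75) and Rgs1 (−0.635). These values, and those that follow, describe the sums and have no p.

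Among 5467 genes with a mean of at least 20 CPM, without gate and phase list genes, the patterns most like Gcsam over the 24 sums were those of Pou2af1 (0.94), Mtf2 (0.93) and Vars (0.92). Pou2af1 encodes a coactivator of octamer factors in B cells. Gnaz was most like Cenps (0.88) and Pola2 (0.87), of which Pola2 encodes a subunit of DNA polymerase alpha. Rhoa was most like Actr3 (0.93), Pfn1 (0.90) and Actg1 (0.89), a subunit of the actin-branching Arp2/3 complex, profilin and an actin. Rgs2 was most like Zcchc6 (0.97), H2-Ob (0.97) and Cnn2 (0.97), and Rgs1 like Bmp2k (0.94), Jak1 (0.92) and Helz2 (0.92). The closest to Arhgef1 were Actr2 (0.95), Pnrc1 (0.91) and Slc38a9 (0.91). Rgs10 was most like Rack1 (0.89), Rpl13 (0.88) and Rtraf (0.87), a component and a protein of the ribosome and an RNA-binding factor. For Gnai2 they were Txnip (0.89), Smim14 (0.87) and Fam134b (0.87), for Rgs13 Mif4gd (0.86), Dgcr2 (0.85) and Relb (0.84) and for Gna13 C1galt1 (0.83), Med13l (0.81) and Purb (0.81).

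Other genes of the same signalling were read by lists, in the same comparisons and with light zone gate, IgG, S-like and G2/M-like cells on top. The median log2 fold change of all genes tested was −0.0024 between the zone gates, 0.0071 for isotype, −0.028 for S and −0.022 for G2/M. Of all genes tested, 15.5% were called higher and 13.9% lower between the zone gates, 5.84% and 8.14% for isotype, 30% and 30.6% for S, and 28.2% and 28.1% for G2/M. The counts of each list stand beside these shares, and none was tested against them. Of receptors for positioning and confinement (16 listed), the counts were 8 higher and 3 lower of 14 tested between the zone gates (median log2 fold change 0.69), 1 higher and 8 lower of 14 tested for IgG (−0.42), 0 higher and 13 lower of 14 tested for S (−1.04) and 0 higher and 13 lower of 14 tested for G2/M (−1.12). S1pr3, a receptor for sphingosine 1-phosphate, stood at 27.4 and 25.7 CPM in light zone gate cells, against 6.96 and 10.1 CPM in dark zone gate cells (1.68 ± 0.13, adjusted p = 1.42e-35), and was lower in G2/M-like than in G1-like cells, at 10.7 and 11.9 against 34.7 and 36.1 CPM. Gpr183, the oxysterol receptor that draws B cells to the outer follicle, stood at 9.58 and 11.0 against 3.88 and 5.04 CPM between the gates (1.21 ± 0.19, adjusted p = 5.15e-09), and at 4.68 and 5.71 CPM in IgG cells, against 8.83 and 11.1 in IgM cells. Ccr6, the receptor for CCL20, stood at 6.68 and 6.10 against 0.570 and 1.51 CPM between the gates and at 3.36 and 2.50 against 10.0 and 18.4 CPM in S-like against G1-like cells. It was sparse, with 260 and 186 UMIs over all kept barcodes, seen in 2.31% and 2.89% of them. Ccr6, Ccr7, Gpr183 and S1pr1 are also among the 10 naive or memory B cell markers, whose sum was higher in the G1-like and IgM classes, and in the light zone gate at 267 and 340.0 against 196 and 227 CPM.

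Of the other RGS family genes (19 listed, most too low to test), the counts were 1 higher and 0 lower of 7 tested between the zone gates (median log2 fold change 0.068), 0 higher and 1 lower of 7 tested for IgG (−0.013), 2 higher and 4 lower of 7 tested for S (−0.37) and 2 higher and 3 lower of 7 tested for G2/M (−0.31). Rgs14, a scaffold that binds Gαi, stood at 21.5 and 20.8 CPM in S-like cells, against 42.5 and 41.4 CPM in G1-like cells (−0.93 ± 0.10, adjusted p = 3.12e-18), and at 19.3 and 23.1 CPM in G2/M-like cells. Rgs18, next after Rgs21 on chromosome 1, stood at 1.55 and 0.970 CPM in IgG cells, against 5.60 and 6.38 CPM in IgM cells (−2.20 ± 0.20, adjusted p = 3.39e-18). Of other Gα genes (13 listed), the counts were 0 higher and 2 lower of 7 tested between the zone gates (median log2 fold change 0.012), 1 higher and 0 lower of 8 tested for IgG (−0.015), 3 higher and 3 lower of 7 tested for S (−0.12) and 1 higher and 3 lower of 6 tested for G2/M (−0.10). Gna12, the close relative of Gna13, stood at 17.2 and 21.1 CPM in the light zone gate, against 26.5 and 27.5 CPM in the dark zone gate (−0.53 ± 0.10, adjusted p = 3.39e-06), the same sign as Gna13. Of Gβ and Gγ genes (16 listed), the counts were 1 higher and 3 lower of 9 tested between the zone gates (median log2 fold change −0.055), 1 higher and 1 lower of 10 tested for IgG (0.018), 3 higher and 2 lower of 10 tested for S (0.024) and 3 higher and 3 lower of 10 tested for G2/M (−0.13). Gng2 stood at 43.2 and 46.9 CPM in G2/M-like against 77.2 and 78.7 CPM in G1-like cells. Of modulators of Gα and its receptors (13 listed), they were 0 higher and 2 lower of 9 tested between the zone gates (median log2 fold change −0.027), 0 higher and 1 lower of 12 tested for IgG (−0.0055), 3 higher and 4 lower of 11 tested for S (−0.17) and 2 higher and 4 lower of 11 tested for G2/M (−0.13). Gpsm2, which binds Gαi and orients the mitotic spindle, stood at 40.5 and 43.4 CPM in G2/M-like cells, against 5.48 and 7.99 CPM in G1-like cells (2.73 ± 0.13, adjusted p = 1.15e-89).

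Of exchange factors and inhibitors of GTPases related to RhoA (23 listed), the counts were 4 higher and 3 lower of 22 tested between the zone gates (median log2 fold change −0.033), 1 higher and 5 lower of 23 tested for IgG (−0.042), 1 higher and 20 lower of 23 tested for S (−0.44) and 1 higher and 18 lower of 23 tested for G2/M (−0.36). Dock10, an exchange factor for Cdc42 and Rac, stood at 91.1 and 88.9 CPM in light zone gate cells, against 47.4 and 49.0 CPM in dark zone gate cells (0.89 ± 0.067, adjusted p = 2.66e-38), and at 59.5 and 51.5 CPM in S-like against 132 and 134 CPM in G1-like cells. Of other GTPases related to RhoA (9 listed), the counts were 4 higher and 1 lower of 8 tested between the zone gates (median log2 fold change 0.11), 0 higher and 2 lower of 8 tested for IgG (−0.10), 1 higher and 6 lower of 8 tested for S (−0.48) and 1 higher and 6 lower of 8 tested for G2/M (−0.47). Rhof, which forms filopodia, stood at 55.0 and 57.3 against 34.0 and 33.9 CPM between the light and dark zone gates (0.71 ± 0.079, adjusted p = 1.05e-17). Rhoh, a GTPase-deficient member of blood cells, stood at 509 and 509 CPM in S-like cells, against 769 and 759.9 CPM in G1-like cells. Of effectors of RhoA and its actomyosin targets (20 listed), the counts were 6 higher and 4 lower of 17 tested between the zone gates (median log2 fold change 0.043), 2 higher and 3 lower of 18 tested for IgG (−0.032), 3 higher and 7 lower of 17 tested for S (−0.066) and 4 higher and 6 lower of 17 tested for G2/M (−0.053). Cit, the citron kinase of cytokinesis, stood at 154 and 137 CPM in G2/M-like cells, against 7.92 and 6.29 CPM in G1-like cells (4.38 ± 0.11). Rdx, which links actin to the membrane, stood at 37.3 and 34.5 CPM in S-like cells, against 14.2 and 15.7 CPM in G1-like cells (1.35 ± 0.12, adjusted p = 1.31e-25). Of dissociation response genes (12 listed), the counts were 3 higher and 2 lower of 10 tested between the zone gates (median log2 fold change 0.042), 2 higher and 4 lower of 11 tested for IgG (0.013), 0 higher and 8 lower of 10 tested for S (−0.71) and 1 higher and 8 lower of 11 tested for G2/M (−0.47).

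Reads of overlapping genes cannot be told apart where strand is not used, and whether counting used strand is not given in the sources used here. Gna13 overlaps the antisense gene Gm11696, which was listed with 1069 UMIs, and Rhoa overlaps Tcta on the other strand, listed with 445. Gnaz overlaps Rsph14 on the other strand, listed with 1 UMI. The gene models that overlap Rgs10 (Gm15503), Gnai2 (Gm19721) and Rhoa (Gm37568) on the same strand are not listed in the matrices.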

How the data were processed

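The deposited matrices hold raw UMI counts per gene and cell barcode for 2 libraries. The software was Cell Ranger 3.0.2 per the file headers, and the build mm10 per the submitters' processing notes. The gene annotation and the rule that called cells are not given in the sources used here. The members, gene lists and settings were chosen with earlier results of these data known, and earlier results had already shown the zone and isotype differences of Gcsam. No doublet caller was run. An alternative left out the 6% of barcodes with most UMIs.

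Gates and phases were read on counts thinned to 3400 UMIs, the 10th percentile rounded down to 100, which left out 465 and 391 shallower kept barcodes. A phase score is the list mean of log-normalized counts less the mean of all other genes in the same of 25 expression bins. Cells with both scores at or below 0 were G1-like, and otherwise the higher score named the phase. Unthinned counts were summed per class and library and tested with edgeR 4.0.16 (quasi-likelihood test in R 4.3.3, TMM, filterByExpr, Benjamini-Hochberg adjustment over all genes tested, threshold 0.05). The library was a block, because the classes compared come from the same library. Genes that define a class were not tested. Kept cells gave 58915363 and 41246438 UMIs. DESeq2 1.42.0 was an alternative. Named genes outside the 10 had passed with an absolute log2 fold change of at least 0.5, at most 4 a list and comparison, and 1 gene of similar pattern is not reported here. The fits were also run on counts simulated from their own fitted means and dispersions, with known changes. Such counts follow the fitted model, so this cannot show whether its p-values hold for these libraries. Coordinates are those of GENCODE on mm10, counted from 1. Python 3.11.15 drew the figures with matplotlib 3.10.9.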

Additional observations from a re-analysis of the deposited data

How the results depend on the processing

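Of 590 fold changes of the 10 genes under alternatives with a test, 466 kept direction and side of the threshold, 68 were no longer called, 14 became called and 42 changed sign. The 466 include the isotype values with another thinning seed, which rest on unthinned counts and so could not change. Those that changed sign had been called as reported only for Rgs1 between the zone gates, Rgs1 and Rgs2 for isotype and Arhgef1 for G2/M. After the change of sign, the zone values of Rgs1 with gates of 2 UMIs and of Rgs10 at a 10% limit were called. The cause was not tested for any of these. Fewer calls came without the replicate block, which pairs classes of the same library: 1 of the 10 and 353 genes for the zone gates, 0 of the 10 and 84 genes for isotype, 4 of the 10 and 3657 genes for G2/M and 5 of the 10 and 4317 genes for S, and 0 genes for both interactions. DESeq2 called 2 of the 10 and 783 genes, 2 of the 10 and 263 genes, 4 of the 10 and 2779 genes and 5 of the 10 and 2975 genes in the same order, and 1 gene for isotype by zone. Thinned sums gave 2 of the 10 and 1514 genes for the zone gates, 4 of the 10 and 889 genes for isotype, 6 of the 10 and 4054 genes for G2/M and 7 of the 10 and 4063 genes for S. For isotype a mitochondrial limit of 10% gave 3 of the 10 and 1348 genes, a limit of 40% 9 of the 10 and 3124 genes, and the share as a term 4 of the 10 and 1212 genes. S within light zone gate cells gave 6 of the 10 and 3963 genes. Zone by phase called 71 genes without a filter on low counts, 296 and 52 at limits of 10% and 40%, and 2 of the 10 and 258 genes with another thinning seed. Isotype by zone called 19, 5 and 4 genes without the filter, at 40% and with another seed.

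On the log2 scale, the fold changes that turned round between the zone gates were, with another thinning seed Rgs10 −0.068, with gates of 2 UMIs Rgs1 −0.31, Rgs2 −0.043, with isotype as a term Rgs10 −0.0035, at a 10% limit Rgs10 −0.25, at a 40% mitochondrial limit Rgs1 −0.047, Rgs2 −0.013, Rgs10 −0.050, with mitochondrial share as a term Rgs10 −0.060, with phase as a term Rgs2 −0.029, Rgs10 −0.0043, on thinned sums Gnai2 0.00072, with unthinned gates Rgs10 −0.12. For isotype they were, with isotypes from 95% of 20 UMIs Rgs1 −0.074, Rgs2 −0.089, Arhgef1 −0.089, in the germinal center gate Arhgef1 −0.0035, with isotypes on thinned counts Rgs10 −0.026, at a 10% limit Rgs1 −0.12, Rgs2 −0.035, Arhgef1 −0.084, at a 40% mitochondrial limit Rgs10 −0.092, with mitochondrial share as a term Arhgef1 −0.018, on thinned sums Rgs10 −0.011, without the deepest 6% Rgs10 −0.088. For G2/M they were, with mitochondrial share as a term Rgs10 −0.10, between tertiles Gnai2 0.054, Arhgef1 0.065, without the deepest 6% Rgs10 −0.12, Gnai2 0.0034, Arhgef1 0.0054. For S they were, with another thinning seed Rhoa −0.0031, in light zone gate cells Rhoa −0.053, at a 10% limit Rhoa −0.070, with mitochondrial share as a term Gna13 0.028, Rhoa −0.10, without TMM factors Rhoa −0.060, without the replicate block Rhoa −0.00073, between tertiles Gna13 0.0028, without shared barcodes Rhoa −0.0020, without the deepest 6% Gna13 0.051, Rhoa −0.035. Leaving out a library leaves 1 sum a class, a value with no test, and turned no called value round. Low counts limit Gnaz most, with 28 and 18 UMIs in G1-like cells.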
